A study of Mus musculus with 5 samples.

Results

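Intronic long non-coding RNA (lncRNA) loci are transcribed places that lie within an intron of another gene. They were followed in the testis of mice given triptolide, a diterpenoid of the vine Tripterygium wilfordii. A locus was counted as intronic when every transcript assembled there carried that class in the deposited lncRNA table, and its counts were summed over its transcripts. The rule gave 746 of 16356 lncRNA loci, with 1257 transcripts. The triptolide group were C57BL/6J males of 10 weeks that received 50 µg per kg daily by gavage for 35 days, and the control group were males of the same strain and age that received saline. The data hold 3 triptolide and 2 control libraries of total testis RNA after removal of ribosomal RNA. The labels give 6 mice per group but not how mice map to libraries, which may be single animals or pools. The p-values therefore cover the spread between libraries, which may be technical. In the lncRNA table, 2 triptolide columns share 1 header. They are called triptolide A and B, and the column with its own header is called triptolide 3.

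LncRNAs are RNAs without a long open reading frame that are made, spliced and often polyadenylated like messenger RNAs. One that lies in an intron can run on the same strand as the surrounding gene or on the opposite strand, and some are known to act on that gene while most have no assigned role. The testis makes an unusually wide range of lncRNAs, mainly in meiotic and post-meiotic germ cells. Triptolide binds the XPB subunit of the general transcription factor TFIIH and blocks initiation by RNA polymerase II, and it is known for lowering sperm number and motility in rodents.

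The intronic loci were small. Their median genomic span was 3812 bases, against 6199 bases over all lncRNA loci, and the spans ran between 297 and 172119 bases. Of the 746 loci, 555 had 1 transcript and 462 had no transcript with more than 2 exons. Known transcripts alone made up 701 loci, 43 held new transcripts alone and 2 held both. Thus 94.2% of intronic loci had a known transcript, against 29.8% of all lncRNA loci. A symbol was given for 736 loci. It was mostly the lncRNA's own name: only 56 loci were deposited under the identifier of the gene around them. By the RefSeq genes of GRCm38.p6, 686 loci (92.0%) lay inside a protein-coding gene, and the innermost such genes numbered 582. These genes were long, with a median of 130985 bases, against 17146 bases for all protein-coding genes of that annotation. Most of them, 494, held 1 locus. Sox5, a transcription factor gene, held 5 loci, and Frmd4a and Pitpnc1 held 4 each. Chromosome 5 carried 89 loci, chromosome 2 carried 81 and chromosome 11 carried 74, while the X carried 7 and the Y carried 3.

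The lncRNA table totals were 947298, 1058427 and 1029547 expected counts in triptolide A, B and 3, and 964886 and 1071012 in control 1 and 2. Intronic loci took 3.27%, 3.51% and 3.09% of them in triptolide and 3.4% and 3.38% in control, so the groups overlapped. Levels are given as CPM, the count divided by the total of the same table and multiplied by 1000000, so that 1 CPM is close to 1 count, and a count of 0 allows up to 2.83 to 3.17 CPM in triptolide and 2.8 to 3.11 CPM in control libraries. This limit covers counting error only. No gene of the mRNA table could be matched to a name, so the level of the surrounding mRNA and most markers of testis cell types were not read. Markers were seen only as host genes of circRNAs, which carry a deposited score of scaled back-splice reads (SRPBM). Of the 10 spermatid markers, 2 hosted circRNAs (Crem and Prm2), which summed to 523, 748 and 485 SRPBM in triptolide and 975 and 1022 SRPBM in control. The 3 spermatocyte markers of 6 with a circRNA summed to 2036, 2335 and 1974 against 2223 and 2739 SRPBM, and no Sertoli, smooth muscle, endothelial, epididymal or red cell marker hosted a circRNA in the table, so none of these was read. The spermatid sum was lower in every triptolide library than in either control, and the spermatocyte sums overlapped. The 2 spermatogonial markers of 7 with a circRNA summed to 124, 115 and 139 SRPBM in triptolide and 140 and 124 SRPBM in control, and 1 Leydig and 1 immune marker reached at most 57 SRPBM in any library. In whole testis, fewer cells of a type and less RNA per cell cannot be told apart. The mRNA table implied a mean fragment length of 260 ± 3.8 bases in triptolide (SD, n = 3) and 284 ± 7.8 bases in control (SD, n = 2). The part of germ cell make-up and of fragment length in the values that follow was not tested.

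The start sites of 2 changed loci could be set beside sequence. RefSeq gives a promoter, 250 bases before and 50 after its start site, for 179 intronic loci under their own symbol and on their own strand, and for 105 of these the start lay within 100 bases of the deposited 5′ end. Among the loci that passed the test below, Kank4os and 1700095J12Rik, both lower in triptolide, began exactly at the RefSeq start. The promoters are shown 5′ to 3′ on the strand of the lncRNA, from the RefSeq table of GRCm38.p6, with motif matches in capitals. They lie at chr4:98793518-98793817 on the plus strand (Kank4os) and chr4:138138469-138138768 on the minus strand (1700095J12Rik).
Kank4os: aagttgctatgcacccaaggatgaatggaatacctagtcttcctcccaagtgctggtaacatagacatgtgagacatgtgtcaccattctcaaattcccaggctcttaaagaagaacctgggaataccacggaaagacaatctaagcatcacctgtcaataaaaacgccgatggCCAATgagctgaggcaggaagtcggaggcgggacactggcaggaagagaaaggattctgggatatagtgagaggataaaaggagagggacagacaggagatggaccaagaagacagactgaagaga
1700095J12Rik: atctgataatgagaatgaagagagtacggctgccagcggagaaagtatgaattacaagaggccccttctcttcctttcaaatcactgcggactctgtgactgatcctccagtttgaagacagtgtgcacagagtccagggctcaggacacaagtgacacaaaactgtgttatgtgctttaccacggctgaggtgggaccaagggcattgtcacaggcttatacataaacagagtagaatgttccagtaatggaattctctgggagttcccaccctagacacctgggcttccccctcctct
The letters searched on both strands were CCAAT, the CCAAT box, TATAAA, the TATA box, GGGCGG, the GC box, TGACGTCA, the cyclic AMP response element bound by CREM in spermatids, and TGACG, a shorter core that lies within the whole element. Kank4os held 1 CCAAT box, and 1700095J12Rik held no match in this window. A match is a description of letters and not a binding site. Of all 32851 RefSeq promoters, 37.4% held a CCAAT box, 20.8% the core, 35.7% a GC box, 13.6% a TATA box and 1.79% the whole element. For the 105 intronic loci the first promoter listed under each symbol was read, which need not be the matched one. The shares there were 27.6% for the CCAAT box, 9.52% for the core and 14.3% for the GC box. They were 19% for the TATA box and 3.81% for the whole element.

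Intronic signal was concentrated in few loci. The 10 highest loci held 35.2% and the 50 highest 75.7% of intronic CPM, while 280 loci had no count in any library, 200 had a mean of at least 10 CPM and 74 of at least 100 CPM. The highest, 4930442L01Rik in Pdzk1, a scaffold protein gene, had 2615, 2785 and 2482 CPM in triptolide A, B and 3 and 2279 and 2419 CPM in control 1 and 2. All 3 triptolide libraries were above both controls, by a small margin (log2 fold change 0.16 ± 0.16, SE, adjusted p = 0.62, edgeR quasi-likelihood test). The second, at Nol4l, ran on the strand of that gene, with 1821, 1635 and 1326 CPM in triptolide and 1544 and 2129 CPM in control, and its groups overlapped. Inside Clstn2, which encodes the synaptic adhesion protein calsyntenin 2, 4921534H16Rik had 946, 1106 and 941 CPM in triptolide and 1278 and 1359 CPM in control. Every triptolide library was below both controls there, but the difference did not pass the test (log2 fold change −0.40 ± 0.17, adjusted p = 0.15).

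None of the 10 highest loci passed the test, and their adjusted p lay between 0.15 and 0.99 (edgeR quasi-likelihood test). The other 7 were 4930522N08Rik, 4930589P08Rik in Camta1, 1700029B22Rik, 4933423P22Rik in Ptprj, Gm37982 in Uck2, 1700108J01Rik in Clybl and Gm12925 in Macf1, with means over 5 libraries between 598 and 1576 CPM. Names that end in Rik are those of RIKEN mouse cDNA clones. Per length, the order changed. On the authors' FPKM scale, deposited under clear headers for 3 libraries, 4930522N08Rik was at 2841 FPKM in triptolide 3 and at 3595 and 3186 FPKM in control 1 and 2. The level of 4930442L01Rik, first by CPM, was 1361 FPKM in triptolide 3 and 1270 and 1340 FPKM in control, and that of 1700108J01Rik was 1562 against 2398 and 3448 FPKM. The FPKM ranges of 4930522N08Rik and 1700108J01Rik overlapped, and both lay above that of 4930442L01Rik. By counts over all 5 libraries, 1700108J01Rik did not differ between the groups (log2 fold change 0.02, edgeR adjusted p = 0.98).

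**Figure D1:**
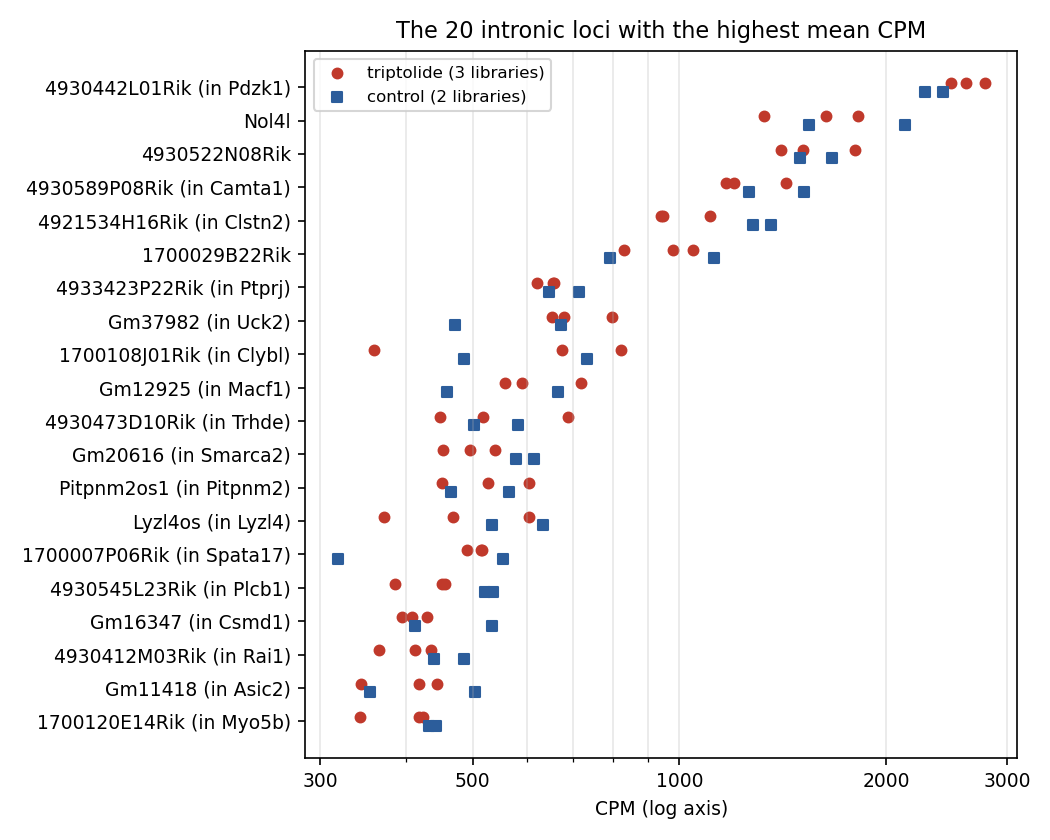
CPM in each of 3 triptolide libraries (circles) and 2 control libraries (squares) of the 20 intronic loci with the highest mean, on a log axis. The circles and squares of most loci lie close together, and 4930442L01Rik stands at the top, between 2279 and 2785 CPM.

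Which intronic loci differed after triptolide was asked with edgeR's quasi-likelihood F test over every lncRNA locus with enough counts, Benjamini-Hochberg adjusted over all 6888 loci tested, with a threshold of 0.05. Of the 746 intronic loci, 466 had a count and 214 were tested. Of these 214, 12 were higher and 5 lower in triptolide, 17 in all (7.94%). Over all tested lncRNA loci the shares were 7.27% in either direction, 5.01% higher and 2.26% lower, so the intronic share was near that of lncRNAs in general. Before adjustment, 54 of the 214 intronic loci had p under 0.05, beside 1497 of all 6888 lncRNA loci tested. The CPM of the groups did not overlap at 82 of the 214 loci (38.3%), against 38.0% of all tested loci. The median log2 fold change was 0.04 over intronic loci and 0.002 over all loci tested. Without triptolide 3 the count of intronic loci that passed was 6 of 204, beside 269 of 6620 over all lncRNA loci tested.

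**Figure D2:**
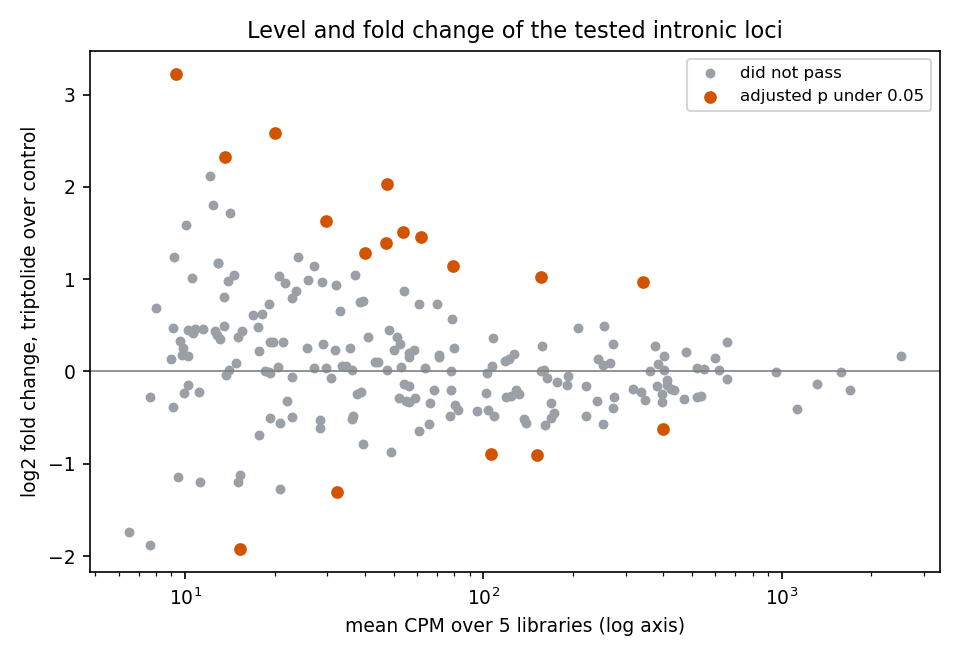
Log2 fold change, triptolide over control, against the mean CPM over 5 libraries (log axis) for the 214 tested intronic loci; filled orange points passed the test. The points that passed are spread over levels up to that of 1700095J12Rik, and none of the 10 highest loci is among them.

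P2rx3 encodes an ATP-gated ion channel best known from sensory neurons. The lncRNA locus inside it (XLOC_113143, chr2:85026113-85033310, minus strand, the strand of P2rx3) had 468, 428 and 380 CPM in triptolide A, B and 3 and 232 and 204 CPM in control 1 and 2. The 3 triptolide values stood well above both controls, with a log2 fold change of 0.96 ± 0.19 (adjusted p = 0.0019). Its transcripts share their ends and differ in exons. The transcript of 3 exons held 313.92, 222.62 and 205.22 expected counts in triptolide and 140.49 and 131.97 in control. The longer transcript of 4 exons held 120.78, 195.7 and 166.04 expected counts in triptolide and 60.95 and 78.52 in control, so both main transcripts were higher in each triptolide library. How reads were shared between them was not given in the sources used here.

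Nck2 encodes an adaptor protein that links receptors to the actin skeleton. The locus inside it (XLOC_001342, chr1:43457273-43462222) ran on the plus strand, that of Nck2. It had 30.6, 18.9 and 40.8 CPM in triptolide A, B and 3 and 7.25 and 2.80 CPM in control 1 and 2. The groups did not overlap, and the log2 fold change was 2.58 ± 0.54 (adjusted p = 0.0028), or 3.35 without control 1. Gm17491 (XLOC_176829, chr8:22480291-22483330, plus strand) lies inside Slc20a2, a sodium-dependent phosphate transporter gene. It had 87.6, 59.5 and 101 CPM in triptolide and 37.3 and 23.3 CPM in control, again without overlap, with a log2 fold change of 1.46 ± 0.31 (adjusted p = 0.0034). The loci in P2rx3 and Nck2 and Gm17491 passed in every fit with 1 library left out.

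**Figure D3:**
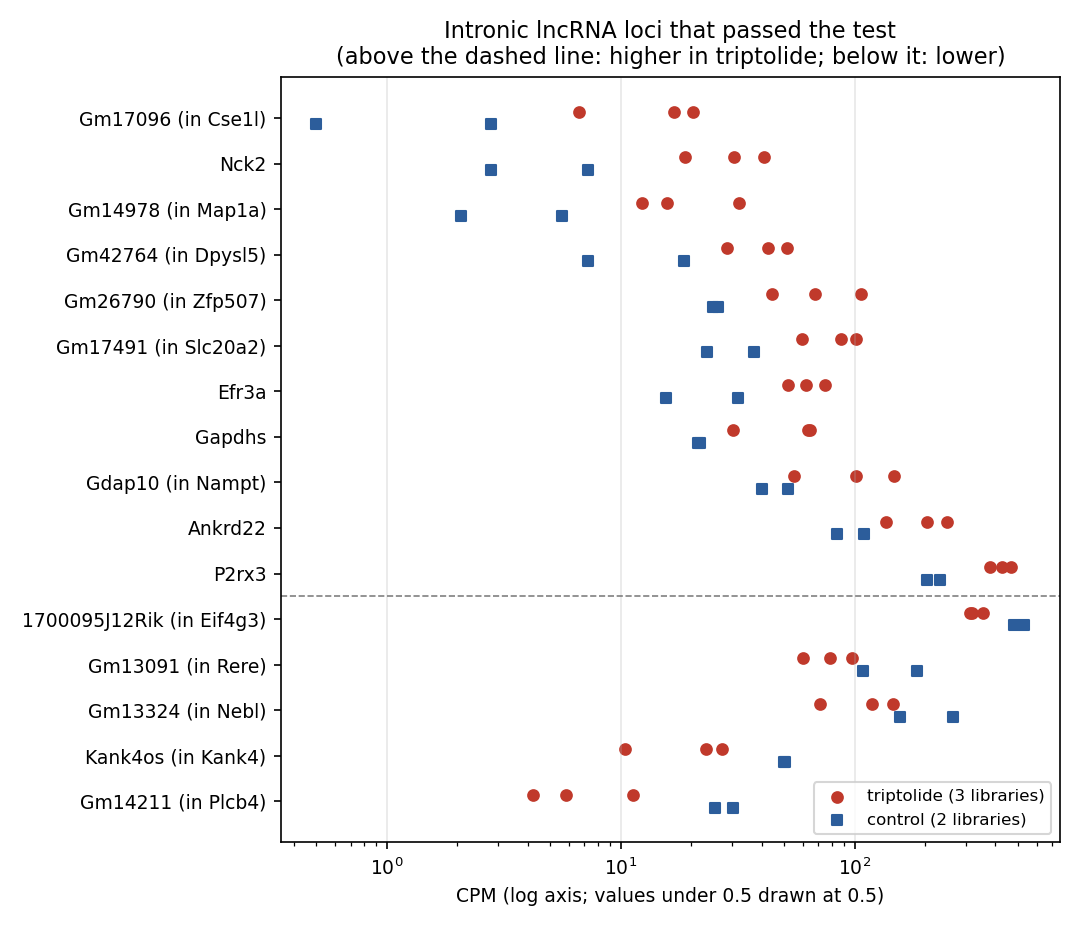
CPM in each triptolide library (circles) and control library (squares) of the intronic loci named here that passed the test, on a log axis, with a value under 0.5 drawn at 0.5. The loci above the dashed line have every circle to the right of both squares, and the 5 loci below it have every circle to the left.

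The next 4 loci, all on the strand of their gene, were also higher. Gm26790 in Zfp507, a zinc finger gene (chr7:35777073-35781576, minus strand), is deposited as new and had 67.6, 44.4 and 107 CPM in triptolide A, B and 3 and 24.9 and 26.1 CPM in control 1 and 2. The controls lay together and triptolide 3 was the highest, with a log2 fold change of 1.52 ± 0.35 (adjusted p = 0.0061, 0.081 without triptolide 3). At Ankrd22, an ankyrin repeat gene (chr19:34153358-34161191, minus strand), the lncRNA had 203, 136 and 249 CPM in triptolide and 83.9 and 110 CPM in control. Triptolide B was nearest to the controls, and the log2 fold change was 1.02 ± 0.25 (adjusted p = 0.0093, 0.092 without control 1 and 0.083 without triptolide 3). The locus in Efr3a (chr15:65787840-65790840, plus strand), whose protein anchors a phosphatidylinositol kinase at the plasma membrane, had 75, 52.0 and 62.2 CPM in triptolide and 15.5 and 31.7 CPM in control. The log2 fold change was 1.39 ± 0.34 (adjusted p = 0.0099, 0.17 without control 1 and 0.059 without triptolide A), and 2.05 without control 2. Gm42764 in Dpysl5, a gene of neuronal growth cones (chr5:30759032-30760477, plus strand), had 28.5, 42.5 and 51.5 CPM in triptolide and 7.25 and 18.7 CPM in control. Control 1 was the lowest library, and the log2 fold change was 1.63 ± 0.41 (adjusted p = 0.013, 0.18 without control 1 and 0.093 without triptolide 3), and 2.52 without control 2.

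The last 4 higher loci had the largest adjusted p of the 12. Gdap10 in Nampt, the gene of the NAD salvage enzyme (chr12:32821872-32826904, plus strand), ran on the strand of Nampt. In control 1 and 2 it had 51.8 and 40.1 CPM. In triptolide A, B and 3 it had 147, 54.8 and 101 CPM, with triptolide B just above control 1. Its log2 fold change was 1.14 ± 0.32 (adjusted p = 0.024, 0.25 without triptolide A, 0.094 without triptolide 3 and 0.065 without control 2). Gm14978 in Map1a, a microtubule-associated protein gene (chr2:121292835-121298207, minus strand, opposite to the gene), had 15.8, 12.3 and 32.1 CPM in triptolide and 2.07 and 5.6 CPM in control. The log2 fold change was 2.33 ± 0.66 (adjusted p = 0.027, 0.16 without control 1 and 0.18 without triptolide 3), and 3.24 without control 2. Gapdhs encodes the glycolytic enzyme of the sperm tail, and the locus opposite to it (chr7:30740358-30742550, plus strand, new) had 64.4, 30.2 and 63.1 CPM in triptolide and 21.8 and 21.5 CPM in control. Its log2 fold change was 1.28 ± 0.36 (adjusted p = 0.027), and adjusted p was 0.13 without either triptolide A or triptolide 3, 0.072 without control 1 and 0.051 without control 2. That locus overlaps an antisense lncRNA locus on the same strand, with 54.9, 29.3 and 35.9 CPM in triptolide and 22.8 and 32.7 CPM in control, and how reads were split between both loci was not given in the sources used here. Gm17096 in Cse1l, a nuclear export gene (chr2:166943539-166944308, plus strand), had 44 counts in 3 triptolide libraries and 3 counts in 2 controls, 1 of them at 0. The ratio of CPM was 9.84 (exact 95% interval 3.15 to 49.5, counting error only), with adjusted p = 0.029, or 0.2 without control 1; it was not tested without triptolide A or triptolide 3. Without control 2 the control left is at 0, and the fitted log2 fold change was 6.89 against 3.22 with all libraries, a value that depends on the prior count and is no bound.

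The 5 lower loci all ran opposite to the gene around them. 1700095J12Rik (XLOC_139444, chr4:138129091-138138518, minus strand) lies in Eif4g3, a translation initiation gene that male mice need to leave meiotic prophase. It was the highest of the 17, with 319, 355 and 313 CPM in triptolide A, B and 3 and 532 and 480 CPM in control 1 and 2. The spread within each group was small beside the gap, and the log2 fold change was −0.62 ± 0.18 (adjusted p = 0.030). With 1 library left out, adjusted p was 0.16 without triptolide A, 0.083 without triptolide 3, 0.19 without control 1 and 0.077 without control 2. Its transcript of 2 exons held 157.25, 208.52 and 120.16 expected counts in triptolide and 207.48 and 257.79 in control, with triptolide B between the controls. The transcript of 3 exons held 77.66, 98.43 and 110.19 in triptolide and 185.09 and 164.9 in control, and the groups did not overlap. Of the transcripts of 4 exons, one held 67.09, 50.18 and 0 in triptolide and 120.43 and 79.11 in control. The other went the opposite way in triptolide 3, with 0, 18.87 and 91.64 in triptolide and 0 and 12.21 in control. Another lncRNA antisense to Eif4g3 had 557, 609 and 560 CPM in triptolide and 860 and 680 CPM in control, also without overlap, but did not pass the test (log2 fold change −0.42, adjusted p = 0.15).

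**Figure D4:**
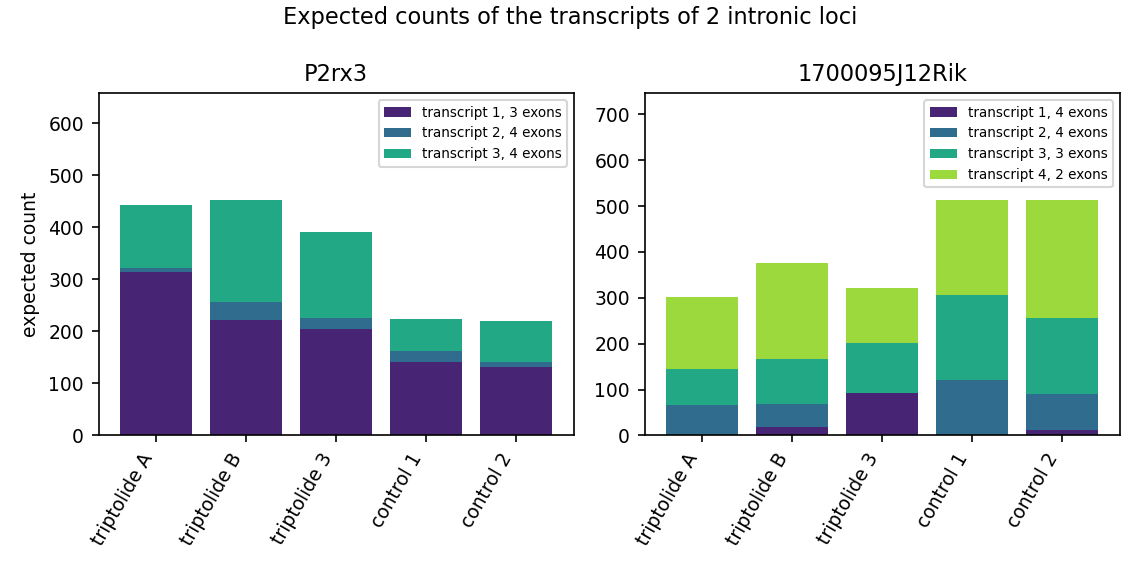
Expected counts of the assembled transcripts, stacked, in 3 triptolide and 2 control libraries for the loci in P2rx3 and 1700095J12Rik. The P2rx3 stacks are taller in each triptolide library than in either control, and the 1700095J12Rik stacks are shorter.

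Kank4os (XLOC_131635, chr4:98793768-98798900, plus strand) lies opposite to Kank4, whose family regulates the actin skeleton. It had 23.2, 10.4 and 27.2 CPM in triptolide A, B and 3 and 49.7 and 50.4 CPM in control 1 and 2. The controls lay together above every triptolide library, with a log2 fold change of −1.30 ± 0.36 (adjusted p = 0.021, 0.057 without control 2 and 0.09 without triptolide B). Gm14211 in Plcb4, a phospholipase C gene (chr2:135669468-135694548, minus strand), was the locus with the most negative fold change, with 4.22, 11.3 and 5.83 CPM in triptolide and 30.1 and 25.2 CPM in control. Its log2 fold change was −1.92 ± 0.50 (adjusted p = 0.016, 0.07 without triptolide A, 0.063 without triptolide 3 and 0.13 without control 1). Of the other loci in Plcb4, Gm14210 was at 0 in every library and Gm14209 was below 1 CPM in each. Gm13324 in Nebl, a gene of muscle Z-discs (chr2:17559060-17559998, plus strand), had 118, 146 and 70.9 CPM in triptolide and 263 and 157 CPM in control, where triptolide B came close to control 2. The log2 fold change was −0.90 ± 0.25 (adjusted p = 0.021, 0.39 without control 1 and 0.12 without triptolide 3). Gm13091 in Rere, a corepressor gene (chr4:150565506-150569437, minus strand), had 97.1, 78.4 and 60.2 CPM in triptolide and 186 and 108 CPM in control. Control 1 was far above the other libraries, and the log2 fold change was −0.89 ± 0.25 (adjusted p = 0.023, 0.48 without control 1, 0.055 without triptolide B and 0.12 without triptolide 3).

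Of the 9 higher loci of known orientation, 7 lay on the strand of the surrounding gene, and the lower ones on the opposite strand. This split was made after the values had been seen, so its counts and medians are a description with no test. By orientation there were 160 loci on the same strand, 411 on the opposite one and 175 whose orientation could not be placed. Of 50 tested loci on the same strand, 7 were higher (14%) and 0 were lower, and 38 (76%) had a positive fold change. Of these 50, 16 were deposited under the identifier of the surrounding gene itself. Among them 4 were higher (25%), those in P2rx3, Nck2, Ankrd22 and Efr3a, and the median log2 fold change was 0.25. The other 34 had 3 higher (8.82%) and a median of 0.49. Of 113 tested loci on the opposite strand, 2 were higher (1.77%) and 5 were lower (4.42%), and 56 (49.6%) had a positive fold change. Over all tested lncRNA loci, 5.01% were higher, 2.26% were lower and 50.1% had a positive fold change. The median log2 fold change was 0.45 on the same strand (interquartile range 0.02 to 0.97) and −0.01 on the opposite strand (−0.33 to 0.23), against 0.002 over all loci tested. The 51 tested loci of unplaced strand had a median of 0.02, with 3 higher and 0 lower.

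The same was read library by library. Against the mean of each locus, the median of same-strand loci was 0.25, 0.01 and 0.34 log2 units in triptolide A, B and 3 and −0.37 and −0.16 in control 1 and 2. All 3 triptolide libraries were above both controls, with triptolide B nearest to them. For opposite-strand loci the medians were −0.04, 0.08 and −0.07 in triptolide and 0.13 and −0.00 in control, and the groups overlapped. The same-strand median stayed positive with any 1 library left out, at 0.30 without triptolide 3, where 3 loci were higher, up to 0.62 without triptolide B. With the loci that overlap another lncRNA locus set aside, 39 same-strand loci had a median of 0.50, with 6 higher and 0 lower. At a mean under 50 CPM it was 0.55 over 34 same-strand loci and 0.11 over 46 opposite-strand loci, and from 50 CPM upward 0.31 over 16 and −0.14 over 67. The kit marked strand, per the labels' protocols, but the sources used here give no strand setting for the counting. On the same strand, reads of a lncRNA and of the unspliced RNA of the gene around it cannot be told apart.

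**Figure D5:**
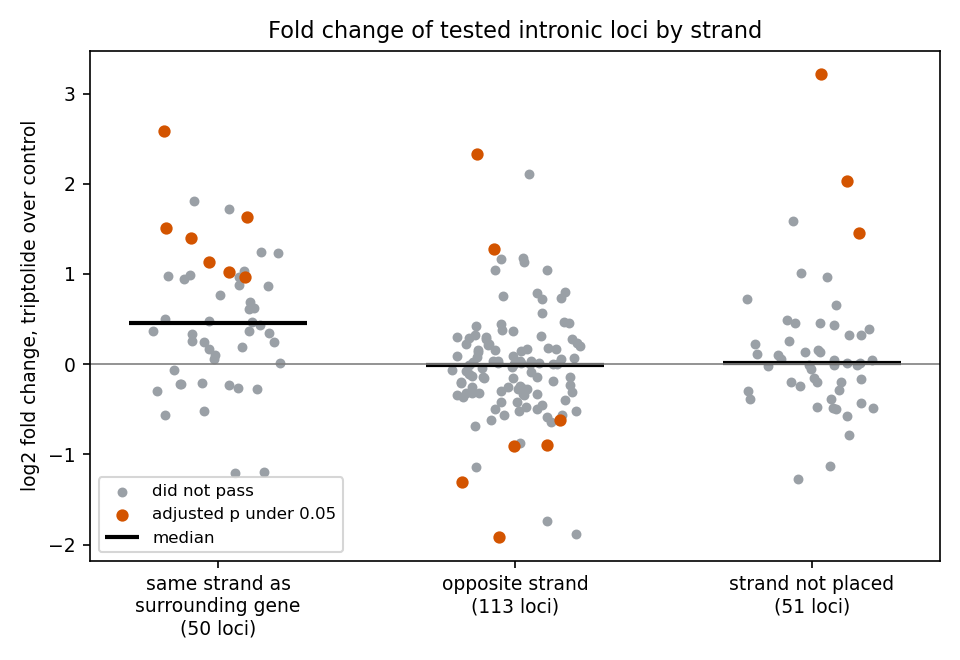
Log2 fold change, triptolide over control, of tested intronic loci on the strand of the surrounding gene (50), on the opposite strand (113) and with strand not placed (51); bars are medians and orange points passed the test. The same-strand median lies at 0.45, and all 7 same-strand points that passed are above 0.

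Same-strand loci that did not pass showed both directions. Gpsm1, Rbfox3 with Gm11749, and Tcf7l2 with Ppnr had log2 fold changes of 0.62, 0.77 and 1.81, while the loci in Lzts1 and Nnmt had −1.19 and −0.51. These 5 were picked after their values were seen. The most abundant same-strand locus, in Nol4l, was at −0.21 (adjusted p = 0.56).

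Other lncRNA loci of the same genes did not pass the test. The locus antisense to Efr3a had 36.9, 50.1 and 17.5 CPM in triptolide A, B and 3 and 20.7 and 26.1 CPM in control 1 and 2, and the groups overlapped. A locus antisense to Dpysl5 had 22.2, 18.0 and 39.8 CPM in triptolide and 49.7 and 29.9 CPM in control, overlapping as well, with a log2 fold change of −0.56 (adjusted p = 0.39), while Gm42764 in the same gene was higher. The locus of mixed class at Cse1l had 302, 334 and 288 CPM in triptolide and 434 and 341 CPM in control, without overlap (log2 fold change −0.33, adjusted p = 0.31). Gm20405 in Efr3a and the antisense locus of Gm26790 were at 0 in every library.

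By function of the gene named or surrounding, 31 intronic loci fell in 12 gene lists and 14 of them were tested. Of the synaptic and neuronal genes, Grik2, a glutamate receptor gene, held Gm26543, with 121, 71.0 and 163 CPM in triptolide and 89.3 and 94.8 CPM in control, which overlapped. Gm16347 in Csmd1 had a log2 fold change of −0.20 and did not pass. Kcnq1, an imprinted potassium channel gene, held Gm28821 and 4933417O13Rik, and the second had 107, 144 and 100 CPM in triptolide and 182 and 163 CPM in control. Its groups did not overlap, but it did not pass the test (log2 fold change −0.56, adjusted p = 0.11). The only tested locus of the meiosis list was 1700047L14Rik in Rnf212, a gene of meiotic crossing over, with 7.39, 28.3 and 13.6 CPM in triptolide and 19.7 and 27.1 CPM in control, and these overlapped. The spermatid list held the Gapdhs locus, and the chromatin list Gm20616 in Smarca2, at −0.27. Of the 12 lists, 5 had no tested member, among them those of Leydig, Sertoli and apoptosis genes.

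The genes around intronic loci also make circular RNAs, which gave a second readout from the same genes. Of 621 surrounding genes, 192 hosted 681 circRNAs, and 310 of these were tested with limma on log2(SRPBM + 16). None passed (limma adjusted p, 0.0% of all 5457 circRNAs tested). Before adjustment, 22 (7.1%) had p under 0.05, of which 9 were higher, against 6.6% of all circRNAs tested, and the median log2 difference was −0.06 over both. In sum they reached 19934, 24689 and 19997 SRPBM in triptolide A, B and C, letters that do not match those of the lncRNA columns, and 21740 and 21761 SRPBM in control.

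Some genes with a changed intronic locus hosted circRNAs. The single circRNA of Slc20a2, which surrounds Gm17491, was listed at 0 in all 3 triptolide libraries and at 43 and 24 SRPBM in control 1 and 2. The circRNAs of Rere, around Gm13091, summed to 550, 456 and 343 SRPBM in triptolide and 462 and 526 SRPBM in control, and those of Cse1l to 104, 209 and 112 against 156 and 99 SRPBM. For Eif4g3 the sums were 94, 131 and 43 SRPBM in triptolide and 0 and 212 SRPBM in control. The groups overlapped for Rere, Cse1l and Eif4g3. For Zfp507, around Gm26790, the sums were 47, 79 and 34 SRPBM in triptolide and 17 and 33 SRPBM in control. They did not overlap, but the 34 of triptolide C lay right beside the 33 of control 2. The lowest values listed above 0 for circRNAs of these genes were 16 to 19 SRPBM in the single libraries. The control values at Slc20a2 stand not far above that, so a listed 0 is not known to be absence.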

How the data were processed

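RNA of mouse testis was measured in 5 libraries, 3 triptolide and 2 control. The authors deposited expected counts per assembled lncRNA transcript, per the file headers, with FPKM beside them. They also deposited expected counts and FPKM of mRNA transcripts, and a score per circRNA, SRPBM, scaled to the library and rounded. The labels' protocols name ribosomal RNA depletion and a directional kit. The submitters' processing notes list HISAT2 2.0.1, HTSeq 0.6.1, DESeq, bedtools 2.17.0 and the build hg19, which is human. Coordinates are printed as deposited: of 313 intronic loci whose symbol is in the RefSeq table of GRCm38.p6, 309 overlapped that gene. The tool that assigned lncRNA classes was not named in the sources used here.

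Counts were summed per locus and rounded. The quasi-likelihood F test of edgeR 4.0.16 under R 4.3.3 was run after filterByExpr and TMM scaling (Benjamini-Hochberg adjustment over 6888 loci), triptolide over control. Standard errors came from the F statistic. For circRNAs with a value above 0 in 2 libraries or more, limma-trend (3.58.1) was run on log2(SRPBM + 16), which understates the change of low circRNAs. Both procedures were checked on simulated data. Columns were matched by header, and 2 lncRNA and 3 circRNA columns share a header, so they count as triptolide libraries without a number. Beside them, 2 FPKM columns were not used. The mRNA table was used only for fragment length, by transcripts of 800 to 20000 bases with FPKM above 20. Orientation came from RefSeq for 537 loci, from antisense loci for 28 and from known lncRNA loci under the surrounding gene's identifier for 6. A locus that itself gave the strand in this last way, such as the one in Ikzf3, is same-strand by construction. Where antisense loci could be checked against RefSeq, 1720 of 1729 genes had the same strand.

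The members, gene lists and named loci were chosen with earlier results of these data known. Named were all intronic loci past the threshold, the 10 with the highest mean CPM, list members, and other lncRNA loci and circRNAs of the same genes. Some same-strand loci that did not pass were added after their values were seen. The circRNAs of surrounding genes with the lowest p were added as well. A result on 1 locus that passed is not reported here. Alternatives were other scalings, filters, tools (DESeq2 1.42.0, limma), units and each library left out.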

Additional observations from a re-analysis of the deposited data

How the results depend on the processing

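The 17 intronic loci that passed kept their direction in every alternative run that tested them. Of 214 tested, the count was 17 with RLE scaling or none, 13 with DESeq2 and 19 with limma on log2(CPM + 1). It was 18 of 466 without a filter and 16 of 202 at a mean count of at least 10. With mixed loci that hold an intronic transcript it was 19 of 288. Over all 6888 lncRNA loci tested it was 474 with RLE scaling, 511 with none, 376 with DESeq2 and 487 with limma. The main fit gave 501 of 6888. Without a filter it was 551 of 14595 over all lncRNA loci, and 475 of 6381 at a mean count of at least 10. DESeq2 did not call Gapdhs (adjusted p = 0.065), Kank4os (0.068) or Gm14978 (0.051), and gave no adjusted p for Gm17096. With single transcripts in place of loci, 0 of 435 intronic transcripts passed, beside 0 of 13534 over all lncRNA transcripts. The cause was not tested. With 1 triptolide library left out, between 6 of 204 (without triptolide 3) and 20 of 209 (without triptolide B) intronic loci passed. Over all lncRNA loci 269 of 6620 and 588 of 6601 passed in these fits. Of the 17, between 6 and 15 passed with 1 triptolide library left out. The lone control left without control 1 or 2 is assumed to vary like the triptolide libraries, so no count of the 17 is given there. Loci that did not pass in those fits are marked with their values above. Fold changes depended on the control left out. Without control 1 the log2 fold change of Gm13091 was −0.49 and that of Nck2 3.35, against −0.89 and 2.58 with all libraries. For the circRNAs of surrounding genes the count was 0 with pseudocounts of 8 and 32 and with a value above 0 in every library, and 4 of 681 without a filter, all 4 higher in triptolide, beside 36 of 11957 over all circRNAs. With 1 library left out it was between 0 and 8; the 8 of 261 were called without control 2, beside 130 of 4560 over all circRNAs. The alternative with mRNA totals as library size was not run, since triptolide A and B could not be matched to mRNA columns. No paired analysis was possible because 2 triptolide columns share a header and carry no number of their own. The split by strand was added after the data had been seen; its same-strand median was between 0.30 and 0.62 in all settings. With 2 and 3 libraries, and controls under 10 counts at 3 of the higher loci, depth limits the folds given.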

Other observations

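The names of intronic loci marked groups with different levels. Of the 746, 64 carried RIKEN names from clone series read from testis libraries, and 54 of these were tested. They summed to 15186, 16980 and 14267 CPM in triptolide A, B and 3 and to 16084 and 16366 CPM in control 1 and 2, and 1 was higher and 1 lower after triptolide. The 504 loci with Gm names summed to 9412, 10073 and 9408 CPM in triptolide and to 10243 and 9528 CPM in control, with 103 tested, 5 higher and 3 lower. The 45 loci whose names end in os, for opposite strand, had 21 tested members, 0 higher and 1 lower, Kank4os. The 133 loci with other names had 36 tested members, 6 higher (16.7%) and 0 lower. Those 6 were P2rx3, Nck2, Ankrd22, Efr3a, Gapdhs and Gdap10. They are already counted in the split by strand, so this is no separate result. All but Gdap10 are deposited under the identifier of the surrounding gene, where 5 of 19 tested loci were higher. Over all tested lncRNA loci, 5.01% were higher and 2.26% lower. The groups overlapped in the RIKEN and Gm sums.

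Among the circRNAs of surrounding genes, the lowest p was that of 1 circRNA of Macf1, a gene of a cytoskeletal linker that also holds the abundant Gm12925. It was at 105, 132 and 165 SRPBM in the triptolide columns A, B and C and at 0 and 16 SRPBM in control 1 and 2, with limma adjusted p = 0.68. A circRNA of Rnf212 was at 47, 26 and 78 SRPBM in triptolide and listed at 0 in both controls, also at limma adjusted p = 0.68. Parg, a gene of poly(ADP-ribose) turnover, hosted a circRNA at 76, 70 and 34 SRPBM in triptolide and listed at 0 in both controls, and another listed at 0 in every triptolide library and at 26 and 41 SRPBM in control. Single circRNAs of Man2a1, Rev3l and Ralgps1 were likewise listed at 0 in every triptolide library and at 24 to 43 SRPBM in control. Such values stand not far above low listed ones like the 16 SRPBM of Macf1 in control 2. A listed 0 is therefore not known to be absence.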
